A study of Mus musculus with 21 samples.

Results

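The lysosome and cathepsin genes of splenic T cells were examined as a set of 9 genes, Ctsd, Ctsb, Ctsl, Ctss, Ctsz, Lamp1, Lamp2, Psap and Laptm5, out of 12994 genes in the table. The genes were picked by name when values of these same 21 samples were already known. Which values led to the choice is not recorded, so the differences between groups given below describe these samples and are not independent support for a pattern. The spleens of C57BL6/J females, for which the labels name no engineered allele, gave the sorted T cells. The mice were 4 weeks old at the start and spent 4 weeks in an enriched environment (EE, 12 to 15 mice in a cage of 9120 cm2 with objects to explore) or in a standard environment (SE, 5 to 6 mice in 666 cm2). CD4+ T cells (LT4 in the labels) came from 6 EE and 5 SE mice and CD8+ T cells (LT8) from 6 EE and 4 SE mice. In all, 12 mice were sampled and 9 of them gave both populations. The labels do not give which of these mice shared a cage, so cage and environment cannot be told apart.

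Lysosomes are acidic organelles in which proteases, glycosidases and lipases break down proteins, sugars and lipids that arrive by endocytosis or autophagy. Cathepsins are their main proteases, LAMP proteins coat their membrane, and saposins help the enzymes that digest sphingolipids. In T cells lysosomal degradation controls how much T cell receptor reaches the surface, and in cytotoxic cells the secretory granules are lysosome-related organelles that share many of these proteins.

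The values are molecule counts, made from reads that carry unique molecular identifiers, divided by a size factor for each sample. They are called normalised molecule counts here and compare a gene between samples, not different genes with each other. Between 145546 and 221454 molecules were counted per sample, on 9302 to 10137 detected genes. The summed level of 10 T cell markers was 797 to 1029 in every sample. Cd8a, a chain of the CD8 coreceptor, ran from 0 to 3.09 in CD4+ samples and from 72.5 to 117 in CD8+ samples. The other chain, Cd8b1, ran from 1.26 to 9.15 in CD4+ and from 177 to 243 in CD8+ samples. Both were higher in the samples labelled CD8+, with Cd8b1 above 0 in every CD4+ sample. With Cd4 they summed to 46.5 to 88.0 in CD4+ and to 275 to 338 in CD8+ samples. The summed level of 11 B cell markers was 24.7 to 118 in CD4+ and 32.9 to 69.6 in CD8+ samples, where Ms4a1, Ebf1 and Blk were at 0 throughout. The 11 genes of the MHC class II pathway summed to 54.6 to 455 in CD4+ and to 24.2 to 76.4 in CD8+ samples. The 11 macrophage and monocyte markers that were rows of the table, of 15 listed, summed to 1.07 to 40.1 in CD4+ and to 0 to 14.4 in CD8+ samples, with Fcer1g, C1qb and C1qc at 0 in the latter. Haemoglobin and other erythroid or platelet RNA reached 580.5 in CD8+ EE sample 6 and 1033 in CD8+ SE sample 3, against at most 26.7 in the other 19. Of the neutrophil and dendritic cell markers none was a row of the table, and of 6 NK cell markers only Klrb1c was, at 1.83 or below. Sorted samples hold RNA of all cells in the gate, so fewer cells of a type and less RNA per cell cannot be told apart.

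The genes differ in what precedes their start site. Sequence of 250 bases before the start was found in RefSeq (GRCm38.p6) for 8 of the 9 genes, all but Ctsb. The letters CACGTG, the core that the lysosomal transcription factors TFEB and TFE3 are known to recognise, were searched in it; they read the same on both strands. They were present before 3 of the 8 genes, Ctsd, Ctsl and Lamp1, against 6.86% of 27025 genes and 33 of 127 other lysosomal genes (26.0%). The longer form TCACGTG, or CACGTGA on the other strand, which contains the first motif, was present before Ctsd and Lamp1, against 3.58% of all genes and 30 of the 127 (23.6%). The stretches are shown because they hold every match, with the core in capitals, 5′ to 3′ on the strand of the gene. The second Ctsd stretch and the Ctsl stretch lie in an untranslated exon of a GENCODE transcript of the same gene that starts further upstream, and the other stretches lie outside annotated transcripts. A match is a description of the letters and not of binding.
Ctsd, chr7:142388057-142388077, minus strand: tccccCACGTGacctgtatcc
Ctsd, chr7:142387910-142387935, minus strand: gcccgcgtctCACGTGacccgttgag
Ctsl, chr13:64370741-64370766, minus strand: cgttagaagcCACGTGctgatctaaa
Lamp1, chr8:13159090-13159160, plus strand: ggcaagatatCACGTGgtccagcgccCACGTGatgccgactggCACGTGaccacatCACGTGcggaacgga

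Between the populations, CD4+ T cells held more RNA of the cathepsins Ctsb and Ctsz and less of Ctsd than CD8+ T cells, with ratios of the means, CD4+ to CD8+, of 1.76 for Ctsb, 2.05 for Ctsz and 0.757 for Ctsd. Ctsb passed in 9 alternative fits and in 21 with a sample left out, whereas Ctsz did not pass with the mouse as a block (adjusted p = 0.114 by limma) and passed in only 9 of 21 fits with a sample left out, and Ctsd did not pass without CD4+ SE sample 1, CD8+ SE sample 3 or both haemoglobin libraries. The membrane genes Lamp1, Lamp2 and Laptm5 and the saposin precursor Psap differed by at most 0.22 on the log2 scale. Between EE and SE, Ctsd in CD4+ T cells had a mean in EE 1.63 times that in SE, which did not pass the test. The EE and SE samples overlapped for each of the 9 genes in both populations, and the share of all genes that overlapped was not computed. The plot of the 9 genes by sample shows these levels.

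**Figure D1:**
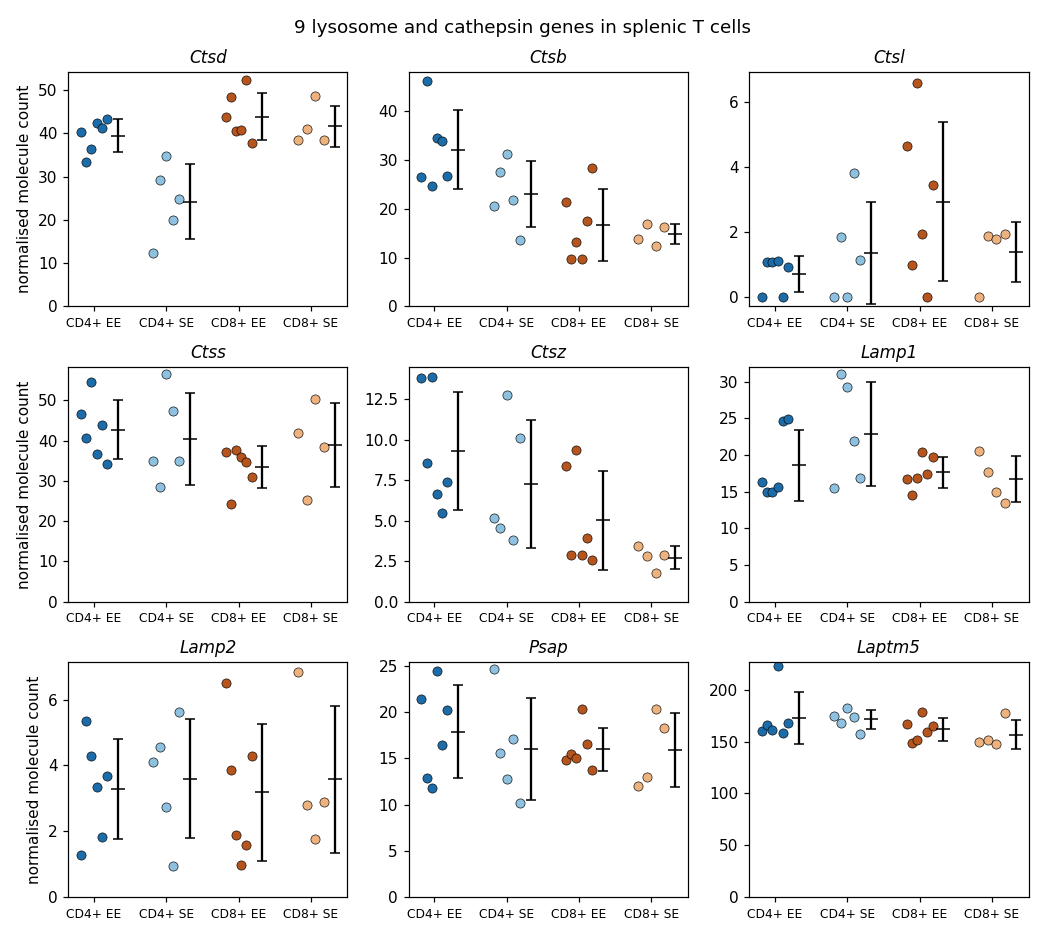
Normalised molecule count (vertical axis, linear, a scale of its own for each gene) of the 9 lysosome and cathepsin genes in the 6 CD4+ EE, 5 CD4+ SE, 6 CD8+ EE and 4 CD8+ SE samples. Points are samples, and bars are the mean and SD of a group; the CD4+ SE samples of Ctsd spread from 12.4 to 34.7 and all lie below the CD8+ SE samples, at 38.4 to 48.6.

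Ctsd encodes cathepsin D, the main aspartic protease of the lysosome, and lies on chromosome 7 (GRCm38, 142375911 to 142388038, minus strand, 9 exons). In CD4+ EE samples its level had a lowest value of 33.3, a median of 40.7 and a highest value of 43.3. The CD4+ SE samples 1, 3, 4, 5 and 6 held 12.4, 29.3, 34.7, 19.9 and 24.8. Only SE sample 4 reached the EE range, so the groups overlapped by a single sample. The CD8+ EE samples ran from 37.8 through a median of 42.2 to 52.2. The CD8+ SE samples 1, 2, 3 and 6 held 38.5, 41.0, 48.6 and 38.4. In order of the mean, CD8+ EE (43.9 ± 5.43, SD, n = 6) and CD8+ SE (41.6 ± 4.77, n = 4) came before CD4+ EE (39.5 ± 3.87, n = 6) and CD4+ SE (24.2 ± 8.60, n = 5), and each neighbouring pair in that order overlapped. The SD of the CD4+ SE samples was 1.77 times what counting of 12 to 38 molecules alone gives, whereas in the other groups it was 0.600 to 0.861 times that amount.

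The log2 fold change of Ctsd, on log2 of the value plus 1, was 0.75 for EE against SE in CD4+ T cells (SE of the estimate 0.22, 95% confidence interval 0.32 to 1.18, adjusted p = 0.629 by limma) and 0.07 in CD8+ T cells (interval -0.27 to 0.41, adjusted p = 0.992 by limma). Their difference, the interaction, was 0.68 (interval 0.13 to 1.23), with an adjusted p of 0.98 by limma, so a difference in response between the populations was not shown. Between populations Ctsd was lower in CD4+ T cells by a log2 fold change of -0.49 (SE of the estimate 0.14, interval -0.76 to -0.21, adjusted p = 0.0223 by limma). The difference was -0.15 among EE samples, which overlapped, and -0.83 among SE samples, which did not. Without CD4+ SE sample 1, the lowest for Ctsd, the difference between populations was -0.38 and no longer passed (adjusted p = 0.0816 by limma), as without CD8+ SE sample 3 (-0.45, adjusted p = 0.0719) or without both haemoglobin libraries (-0.47, adjusted p = 0.0634). Ctsd shares 671 bases with Gm49369, an overlapping gene on the same strand that was not a row of the table, so reads could have been assigned to either.

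Ctsb encodes cathepsin B, a cysteine protease that also acts as a carboxypeptidase (chromosome 14, 63122462 to 63145923, plus strand). Its levels were 24.6, 30.3 and 46.1 (lowest, median and highest) in CD4+ EE samples, and 20.6, 27.5, 31.1, 21.8 and 13.5 in CD4+ SE samples 1, 3, 4, 5 and 6. In CD8+ T cells they were 9.66, 15.3 and 28.3 in EE and 13.7, 16.8, 12.4 and 16.3 in SE samples 1, 2, 3 and 6. CD4+ samples were the higher ones, with overlap in both environments. The log2 fold change between populations was 0.77 (SE of the estimate 0.18, interval 0.41 to 1.12, adjusted p = 0.00291 by limma), and it passed in each of the 21 fits with a sample left out, where the adjusted p was at most 0.0107. In CD4+ T cells the EE against SE difference was 0.49 (interval 0.04 to 0.94, adjusted p = 0.831 by limma), and in CD8+ T cells the difference was 0.07 (interval -0.50 to 0.63). The CD4+ difference ran from 0.32 (without SE sample 6) to 0.60 with a sample left out. It was 0.29 without both CD4+ libraries with most macrophage RNA. The exons of Ctsb overlap those of Fdft1, on the opposite strand and also a row of the table, over 774 bases, and whether the counting used the strand is not given in the sources used here.

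Ctsz encodes cathepsin Z, a cysteine carboxypeptidase (chromosome 2, 174427493 to 174439039, minus strand). It was measured with few molecules, 2 to 14 per sample. CD4+ EE samples held 5.49, 7.98 and 13.9 (lowest, median and highest) and CD4+ SE samples 1, 3, 4, 5 and 6 held 5.15, 4.58, 12.8, 3.80 and 10.1. CD8+ EE samples held 2.58, 3.43 and 9.40, and CD8+ SE samples 1, 2, 3 and 6 held 3.43, 2.79, 1.77 and 2.88. The SE samples of the populations did not overlap, whereas the EE samples did. The log2 fold change between populations was 0.95 (SE of the estimate 0.29, interval 0.37 to 1.53, adjusted p = 0.0403 by limma). With the mouse as a block it was 0.92 with an adjusted p of 0.114 by limma, and with a sample left out the adjusted p ran from 0.0236 to 0.113 and passed in 9 of 21 fits. Without both haemoglobin libraries the difference was 0.82 (adjusted p = 0.147 by limma), and without CD4+ EE sample 4 and SE sample 6, the CD4+ samples with most macrophage RNA, it was 0.91 (adjusted p = 0.0789). Its environment differences were 0.37 in CD4+ (interval -0.36 to 1.10) and 0.57 in CD8+ T cells (interval -0.34 to 1.49).

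Ctss encodes cathepsin S, the cysteine protease that trims the invariant chain of MHC class II in antigen-presenting cells (chromosome 3, 95526786 to 95556403, plus strand). Its levels were 34.1, 42.3 and 54.5 in CD4+ EE samples (lowest, median and highest), 35.0, 28.4, 56.7, 47.5 and 34.9 in CD4+ SE samples 1, 3, 4, 5 and 6, and 24.2, 35.4 and 37.6 in CD8+ EE samples. CD8+ SE samples 1, 2, 3 and 6 held 42.0, 25.1, 50.3 and 38.4. All 4 groups overlapped. The difference between populations was 0.20 (interval -0.08 to 0.47, adjusted p = 0.549 by limma) and was -0.03 with the mouse as a block. Ctss was higher in the CD4+ sample in 6 of 6 EE mice and lower in it in 3 of 3 SE mice. The interaction was 0.29 (adjusted p = 0.994 by limma), and 0.74 with the mouse as a block (adjusted p = 0.759), so a difference between the environments was not shown.

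Ctsl encodes cathepsin L, a cysteine endopeptidase (chromosome 13, 64359337 to 64370890, minus strand). It had 0 to 7 molecules per sample and was at 0 in 6 of 21 samples. The highest level was 1.11 in CD4+ EE, 3.80 in CD4+ SE, 6.58 in CD8+ EE and 1.92 in CD8+ SE samples. Its mean stayed under the limit of 2 in the fits of CD4+ samples and of all samples, so that it was not tested there. In CD8+ T cells it passed that limit through the EE samples (mean 2.93, against 1.39 in SE), and their log2 difference of 0.55 (interval -0.63 to 1.74) is given as a value with no test. Stretches of Ctsl transcripts of at least 100 bases match transcripts of many other genes at 95% identity or more, so its few molecules are uncertain.

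Lamp1 and Lamp2 encode the major glycoproteins of the lysosomal membrane, and LAMP1 at the cell surface marks cytotoxic cells that have released granules. Lamp1 (chromosome 8, 13159161 to 13175338, plus strand) held 15.0, 16.0 and 24.9 in CD4+ EE samples (lowest, median and highest), 15.4, 31.1, 29.3, 21.8 and 16.9 in CD4+ SE samples 1, 3, 4, 5 and 6, and 14.5, 17.2 and 20.4 in CD8+ EE samples. CD8+ SE samples 1, 2, 3 and 6 held 20.6, 17.7, 15.0 and 13.5. The highest levels were those of CD4+ SE samples 3 and 4, and all groups overlapped. The EE against SE difference was -0.27 in CD4+ T cells (interval -0.76 to 0.22, adjusted p = 0.918 by limma), with a sign opposite to that of Ctsd, and 0.08 in CD8+ T cells (interval -0.41 to 0.58). Lamp2 (chromosome X, 38401357 to 38456454, minus strand) rested on 1 to 8 molecules per sample, with group means of 3.18 to 3.60, and its difference between populations was 0.05 (interval -0.63 to 0.74, adjusted p = 0.968 by limma).

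Laptm5 encodes a lysosomal membrane protein of blood cells that promotes degradation of the T cell receptor complex (chromosome 4, 130913125 to 130936141, plus strand), and Psap the precursor of the saposins (chromosome 10, 60277627 to 60302597, plus strand). Laptm5 was read with 127 to 202 molecules per sample. Its levels were 158, 164 and 223 in CD4+ EE, 175, 168, 183, 174 and 158 in CD4+ SE samples 1, 3, 4, 5 and 6, 149, 162 and 179 in CD8+ EE, and 150, 152, 147 and 178 in CD8+ SE samples 1, 2, 3 and 6. All groups overlapped, and the intervals were the narrowest of the 9 genes, -0.23 to 0.24 for EE against SE in CD4+ T cells, -0.15 to 0.24 in CD8+ T cells and -0.04 to 0.26 between populations. Psap had group means from 15.9 ± 4.02 (n = 4) to 17.9 ± 5.03 (n = 6), with differences of 0.16 (interval -0.38 to 0.69) and 0.03 (interval -0.48 to 0.55) between environments and of 0.05 between populations (interval -0.32 to 0.42).

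**Figure D2:**
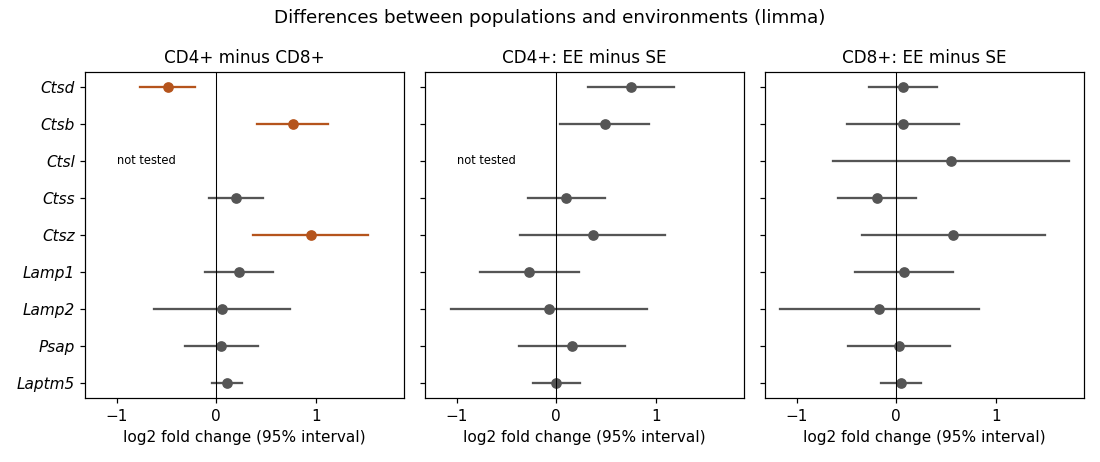
Log2 fold change (horizontal axis, dots) with its 95% interval (lines) for each gene in CD4+ minus CD8+ T cells and in EE minus SE within each population, from limma on log2 of the value plus 1. Orange marks adjusted p under 0.05, reached by Ctsd, Ctsb and Ctsz between populations; Ctsl was not tested where marked.

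Counts over the set were read against all genes of the same fit. In CD4+ T cells, 8 of the 9 genes passed the filter on the mean and 0 passed the adjusted threshold of 0.05 between EE and SE (limma), against 0.0126% of 7939 genes. At an unadjusted p under 0.05 Ctsd and Ctsb stood against 5.82% of genes. That count was 1 by DESeq2 (308 of all genes), with all 21 samples in the fit (570) or the animal number as a block (450). It was also 1 in some fits with a sample left out. Of the 8 genes, 6 had a log2 fold change above 0, with a median of 0.13 against 0.00 for all genes. In CD8+ T cells 9 genes entered the fit, Ctsl through its EE samples alone, and 0 passed, against 0% of 7840 genes by limma, edgeR and DESeq2 alike, with 0 at an unadjusted p under 0.05 against 5.27% (413 genes). Between populations 3 of 8 tested genes passed, Ctsb and Ctsz as higher and Ctsd as lower in CD4+ T cells, against 4.4% of 7938 genes (185 higher, 164 lower). The interaction gave 0 of 8, against 0% of 7938 genes by all 3 tools, and Ctsd was the single gene of the set at an unadjusted p under 0.05, against 4.95% (393 genes). With the mouse as a block 2 of the 8 genes stood there (469 of all genes), and without both haemoglobin libraries 0 did (341), with 0 past the adjusted threshold by limma in both. These comparisons share samples, and the SE samples of CD4+ T cells enter 3 of the 4.

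CD4+ and CD8+ samples of 9 mice could be set side by side. Ctsz was higher in the CD4+ sample of 9 of 9 mice, with a mean log2 difference of 0.90 ± 0.40 (SD). Ctsb was higher in 7 of 9 (0.81 ± 0.79) and Ctsd lower in 7 of 9 (-0.42 ± 0.53), in 4 of 6 EE mice and 3 of 3 SE mice. In the remaining genes read in every sample the count was 4 to 6 of 9 mice higher in the CD4+ sample.

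**Figure D3:**
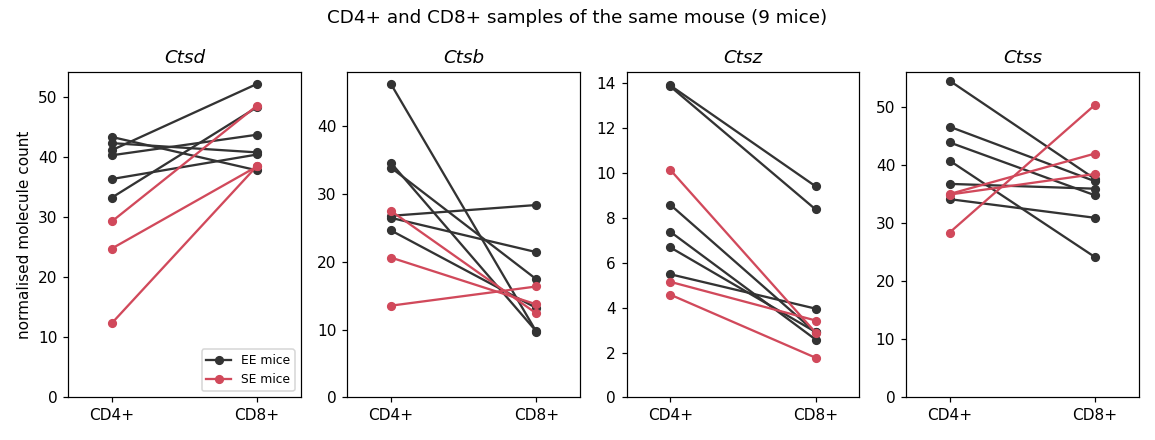
Normalised molecule count (vertical axis) of Ctsd, Ctsb, Ctsz and Ctss in CD4+ and CD8+ samples (horizontal axis), with a line for each of the 9 mice that gave both, 6 from EE in black and 3 from SE in red. Each Ctsz line falls from CD4+ to CD8+, and the Ctss lines fall in 6 EE mice and rise in 3 SE mice.

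Marker RNA of other cells moved with some of these genes. CD4+ SE sample 1, with the lowest Ctsd level of 12.4, also had the lowest B cell sum (24.7) and the lowest MHC class II sum (54.6) of the CD4+ samples. After group means were taken off, Ctsd and the B cell sum correlated across the 11 CD4+ samples with r = 0.92 and rho = 0.83, and with r = 0.74 without the 2 samples farthest from the median. The immunoglobulin gene Ighm, read in CD8+ samples too at 28.0 to 51.5, gave r = 0.90 alone and the other 10 B cell markers gave r = 0.85, or 0.47 without the 2 farthest samples. In the 10 CD8+ samples r of Ctsd was 0.01 for the B cell sum, and 0.76 without the 2 farthest. It was -0.25 and -0.75 for the 10 markers other than Ighm, and 0.16 and 0.30 for Ighm alone. The 2 farthest samples were picked anew for each sum, so the trimmed values can rest on different samples and the sign there was not settled. For the MHC class II sum in CD4+ samples r was 0.78, and 0.16 without the 2 farthest samples, and in CD8+ samples it was -0.54 (-0.26). In CD4+ samples Lamp1 followed the B cell sum with r = 0.69 (0.56 without the 2 farthest), while Psap had r = -0.56 (-0.21) and Ctsb r = 0.05 (-0.28). In CD8+ samples Lamp1 had r = 0.13 (-0.45) and Psap r = -0.20 (-0.08) with that sum. In CD8+ samples Ctsb had r = 0.79 (0.48 without the 2 farthest) with the B cell sum and r = 0.63 (0.48) with the macrophage sum. Laptm5 had r = 0.73 (0.58) with the macrophage sum in CD8+ and r = 0.39 (-0.46) in CD4+ samples. Ctss went against the macrophage sum in CD4+ samples, with r = -0.76 (-0.75), and had r = 0.03 (0.09) in CD8+ samples. These correlations are part of many pairs of gene, marker sum and population, and the points share libraries and depth. Between populations, 4 of 6 tested B cell markers and 6 of 9 tested MHC class II genes were higher in CD4+ T cells, as were 2 of 10 T cell markers, against 4.4% of all genes called in either direction. This was the direction of Ctsb and Ctsz and not of Ctsd. The part of these markers in the results was not tested.

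**Figure D4:**
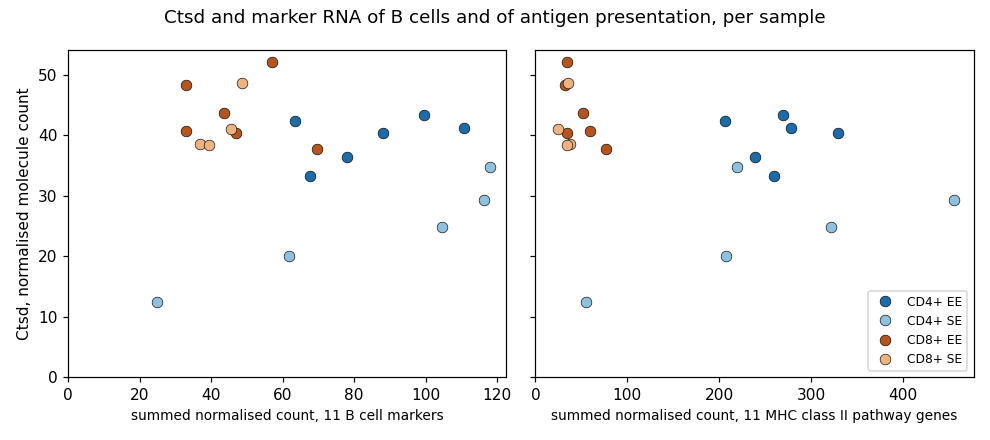
Ctsd level (vertical axis, normalised molecule count) against the summed level of 11 B cell markers (left) and of 11 MHC class II pathway genes (right) in each of 21 samples. Among the CD4+ SE samples, the one with the lowest marker sums, 24.7 and 54.6, also has the lowest Ctsd level; the CD8+ samples hold high Ctsd at low marker sums.

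The wider lysosomal system was read from 8 lists with 160 other genes, of which 145 were rows of the table. Between populations, 112 were tested, and 3 passed as higher and 6 as lower in CD4+ T cells, or 8.04% against the 4.4% of all genes, with a median log2 fold change of 0.01 against -0.01. Among the other cathepsins, 1 of 5 tested passed. This was Ctsw, a cathepsin of cytotoxic lymphocytes, which ran from 4.61 to 18.9 in CD4+ and from 52.4 to 101.5 in CD8+ samples, without overlap (-2.60, adjusted p = 1.06e-18 by limma). Ctsa, the carboxypeptidase that protects lysosomal glycosidases, differed by -0.05 (adjusted p = 0.935). Of 3 cathepsin inhibitors tested, Cst7, which encodes cystatin F of immune cells, was lower in CD4+ T cells by -2.13 (adjusted p = 1.73e-07 by limma), while Cst3 and Cstb differed by 0.02 and -0.35 and did not pass.

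Of 27 other hydrolases and activators tested, only the acid phosphatase gene Acp5 passed (3.70%, against 4.4% of all genes). Acp5 was lower in CD4+ T cells (-0.77, adjusted p = 0.000702 by limma). The 2 genes of highest mean in this list were the nucleases Rnaset2a and Rnaset2b, near-identical copies between which reads are uncertain. They differed by -0.16 and -0.32 and did not pass. Of 18 other membrane and transport genes 0 passed by limma, with 1 at an unadjusted p under 0.05 against 14.8% of all genes, and the cholesterol carrier gene Npc2 and the sialomucin gene Cd164 differed by -0.07 and -0.22. Of 16 vacuolar ATPase genes, whose products acidify the lysosome, only Atp6v1d passed (6.25%, against the same 4.4%). Atp6v1d differed by 0.51 (adjusted p = 0.0353 by limma), and Atp6v1f and Atp6v0e by -0.04 and 0.19. Of 14 regulators tested, among them Tfe3 and genes of the Ragulator complex, 0 passed by limma and 4 had an unadjusted p under 0.05, against the same 14.8%, and the Ragulator genes Lamtor5 and Lamtor2 differed by -0.07 and -0.03.

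Of 23 sorting genes tested, Gnptg passed as lower in CD4+ T cells (-0.79, adjusted p = 0.0156 by limma). It encodes a subunit of the enzyme that starts the mannose 6-phosphate tag by which hydrolases reach the lysosome, and its mean was 13.7 in CD4+ EE, 6.75 in CD4+ SE, 16.7 in CD8+ EE and 17.6 in CD8+ SE samples. The tag's receptor M6pr and the late endosomal GTPase Rab7 differed by 0.11 and 0.03. Of 6 secretory granule genes tested, 4 passed (66.7%), against 4.4% of all genes. The granule membrane gene Nkg7 (-3.59, adjusted p = 1.85e-21) and the perforin gene Prf1 (-1.63, adjusted p = 0.000463) were lower in CD4+ T cells. The proteoglycan gene Srgn (0.34, adjusted p = 0.0286, or 0.0556 with the mouse as a block) and the priming factor gene Unc13d (0.79, adjusted p = 0.0154) were higher. These lists were written with earlier results of these samples known. In both environment comparisons and the interaction 0 genes of the 8 lists passed by limma, with 6, 8 and 7 at an unadjusted p under 0.05, which were 5.17% of 116, 7.41% of 108 and 6.25% of 112 tested, against 5.82%, 5.27% and 4.95% of all genes.

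**Figure D5:**
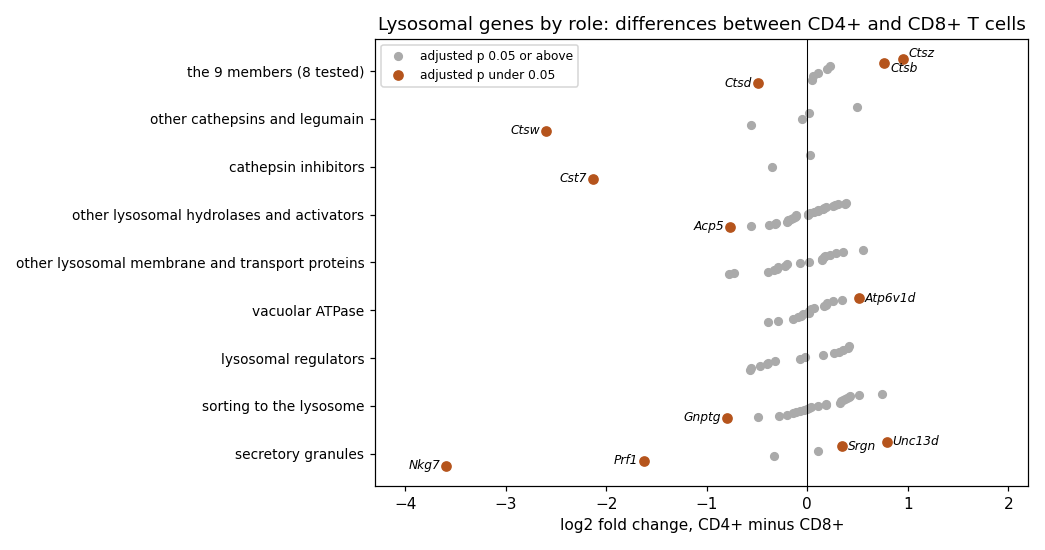
Log2 fold change, CD4+ minus CD8+ (horizontal axis), of each tested gene of the set and of the 8 other lysosomal lists (vertical axis), from limma. Orange points with names passed an adjusted p of 0.05; most genes lie near 0, and Nkg7, Ctsw, Cst7 and Prf1 stand apart as lower in CD4+ T cells.

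No common variation of the 9 genes from sample to sample was seen, but counting error limits what these correlations can show. Over the 21 samples the SD ran from 0.974 (Lamp2) to 2.02 (Ctsb) times that of counting alone. Where it is near that of counting, a low correlation cannot show that genes vary apart. After group means were taken off, the 36 pairs had a median correlation of -0.03 across the 21 samples, 16 were above 0, and they ran from -0.48 for Lamp2 and Psap to 0.50 for Ctsd and Lamp1. Among 2721 genes outside the set with a mean above 10, the levels most like that of Ctsd over the 21 samples were those of H2-Q7 (r = 0.776), Gnptg (0.745), Il2rb (0.740), Ifngr1 (0.712) and Pglyrp1 (0.709). After the group means were taken off they were those of Atg3 (r = 0.730), Psmc3, Ighm, Slc1a5 and Rnpepl1 (0.699). These are the highest of many correlations over samples that share libraries, and they are given as a description.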

How the data were processed

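RNA of sorted splenic T cells (CD45+ CD11b- CD3+, CD4+ or CD8+) was sequenced from 21 samples. Per the study's methods and the submitters' processing notes, the authors trimmed reads with cutadapt and aligned them to mm10 with STAR 2.4.0a. They used the Drop-seq tools to count molecules by gene. Impure samples were removed, which for CD4 samples meant those with CD8a and CD8b above 0. Some CD4+ samples used here nonetheless held both Cd8a and Cd8b1. Low genes were also removed, and the counts were normalised with DESeq2. The deposited signal is thus a molecule count divided by a size factor, and whole molecules (within 0.0001) were recovered for 100% of the values. Samples were grouped from their titles. The 9 genes and all lists were chosen with earlier results of these data known.

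Values, as log2(value + 1), were compared with limma 3.58.1 (R 4.3.3, trend) over genes whose mean exceeded 2, and Benjamini-Hochberg adjustment over all genes tested. A fold change on this scale understates that of low genes. EE and SE were compared within populations; populations and the interaction over all 21 samples. Genes named are the 9, every gene of the other lysosomal lists past the threshold and the 2 of highest mean in each, the 2 highest markers of each list and markers at 0, and the 5 genes most like Ctsd. Ighm alone was added after its values were seen. Alternatives were a pseudocount of 0.5, no filter, a mean above 10, equal totals, all samples in the fit, a replicate block, each sample left out, and edgeR 4.0.16 and DESeq2 1.42.0 on recovered molecules. Fits were also run on simulated counts with the same extra spread for every gene, unlike the data, and no result above rests on them.

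Within an environment, CD4+ and CD8+ samples with 1 number came from a single animal by the labels, and this is the pairing used between populations. Deviations of these pairs from their group means correlated by 0.0140 on average over 9 pairs. Positions are from GENCODE M21 (GRCm38) and 12490 of 12994 gene names matched it. Replicates are different mice, and intervals from counting cover counting error only.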

Additional observations from a re-analysis of the deposited data

Results flagged for a closer look

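In groups of 4 to 6 samples, 8 of 124 groups over the 31 genes examined held a sample set far apart from its own group, where chance gives about 1 in 20, or 6.2. Among the 9 genes these were Ctsl at 0 in CD8+ SE sample 1, against 1.77 to 1.92 in the others (0 molecules against 2 in each, with an SD of the group 0.818 times that of counting alone), Laptm5 at 223 in CD4+ EE sample 4, against 158 to 168, and Laptm5 at 178 in CD8+ SE sample 6, against 147 to 152. CD4+ EE sample 4 and CD8+ SE sample 6 also had the highest macrophage and monocyte marker sums of their populations, 40.1 and 14.4, and the part of these in the Laptm5 levels was not tested. In the other lysosomal lists they were Ctsw at 83.0 in CD8+ SE sample 3, Cst3 at 57.7 in CD4+ SE sample 3, Rnaset2b at 56.5 in CD8+ SE sample 1, and M6pr at 27.4 in CD4+ EE sample 5 and at 7.52 in CD8+ EE sample 3.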

How the results depend on the processing

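Of 801 log2 fold changes of the 9 genes that were recomputed, 739 kept their direction and side of the threshold, 18 of Ctsd and Ctsz no longer passed and 44 changed sign; the cause was not tested. All 36 group levels moved by less than 1 SD. Genes called between EE and SE in CD4+ T cells went from 1 to 0 with a pseudocount of 0.5, a mean above 10, all 21 samples in the fit or the animal number as replicate block (439, 191, 570 and 450 at an unadjusted p under 0.05, limma), to 2 with edgeR and to 3 without a filter, and in CD8+ T cells from 0 to 3 without a filter and to 2 with the animal number as replicate block; same-numbered EE and SE animals are different mice, with a mean correlation of 0.00833 in CD4+ and 0.00522 in CD8+ samples. Between populations 216 genes were called with a mean above 10, where Ctsz was not tested. The mouse as replicate block changed the sign of Ctss between populations (-0.0270), of Lamp2 (0.200) and Psap (-0.0690) in CD8+ T cells by animal number, and of the interaction of Lamp2 (-0.285) and Laptm5 (0.00563); besides Ctsz it changed no other call of the 9 genes. Equal totals gave -0.00444 for Laptm5 in CD4+ T cells.

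Settings without certain libraries were chosen after seeing the data. Without the libraries with most macrophage RNA (CD4+ EE 4 and SE 6), 0 genes were called between EE and SE in CD4+ T cells (400 at an unadjusted p under 0.05), where Lamp2 was 0.0693, Psap -0.0763 and Laptm5 -0.104, Ctsz between populations no longer passed (0.91), Lamp2 was -0.0358, and the interactions of Ctsz and Psap were 0.00170 and -0.107. Without the haemoglobin libraries (CD8+ EE 6 and SE 3), 1 of the 8 genes tested was called between populations, Ctsb, against 297 of 7937 genes. The main fit called 3 of 8, against 349 of 7938 genes. In this setting Ctsd was -0.47 (adjusted p = 0.0634 by limma) and Ctsz 0.82 between populations. Ctsb between EE and SE in CD8+ T cells was -0.179 and the interaction of Psap -0.0332.

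With 1 sample left out, 0 to 3 genes were called between EE and SE in either population. Between populations 1 to 3 of the 8 tested genes of the set were called (1 without CD8+ SE sample 3), against 300 to 362 of all genes. Log2 fold changes in CD4+ T cells ran from -0.0112 to 0.232 for Ctss, -0.352 to 0.0970 for Lamp2, -0.0745 to 0.0240 for Laptm5 and 0.0194 to 0.321 for Psap. In CD8+ T cells they ran from -0.102 to 0.190 for Ctsb, -0.00823 to 0.184 for Lamp1, -0.373 to 0.129 for Lamp2 and -0.0854 to 0.153 for Psap. Between populations they ran from -0.0472 to 0.204 for Lamp2 and -0.0300 to 0.121 for Psap. For the interaction they ran from -0.372 to 0.00884 for Ctsz, -0.199 to 0.302 for Lamp2 and -0.0114 to 0.290 for Psap. Ctsl, Lamp2 and Ctsz were read with few molecules, with an SD over all samples of 1.39, 0.974 and 1.53 times that of counting alone. The part of depth in their spread was not tested.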
